A study of Mus musculus with 12 samples.

Results

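Immune checkpoint receptors and their ligands, 10 genes of the 34678 gene symbols in the files, were examined in 12 subcutaneous tumors grown from the LLC1-shLkb1 line. The members were taken by name from the gene symbol column. The 7 receptors, grouped as those of T cells and natural killer cells, were Pdcd1, Lag3, Havcr2, Tigit, Ctla4, Btla and Cd96. The 3 ligands, grouped as those of tumor and myeloid cells, were Cd274, Pdcd1lg2 and Pvr. Bulk tumor RNA does not show which cells a transcript came from. All 10 were found, each with 1 entry per tumor. LLC1-shLkb1 is a Lewis lung carcinoma line in which a short hairpin RNA lowers Lkb1 (gene symbol Stk11), so the tumors of all 4 arms, vehicle included, carry the knockdown. C57BL/6 mice of both sexes, 6 to 8 weeks old at the start, were treated from 7 days after injection of the cells, and tumors were taken after 2 weeks. The arms, of 3 tumors each, were vehicle (a control immunoglobulin), palbociclib (a CDK4/6 inhibitor, given orally at 100 mg/kg), anti-PD-1 (200 µg of antibody for each mouse) and the combination of both drugs.

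Checkpoint receptors are brakes on lymphocytes. PD-1 (Pdcd1) on an activated T cell binds PD-L1 (Cd274) or PD-L2 (Pdcd1lg2) and recruits phosphatases that damp signals from the T cell receptor, while TIGIT and CD96 bind the poliovirus receptor (Pvr) and oppose the activating receptor CD226 for the same ligand. CTLA-4 competes with CD28 for CD80 and CD86, LAG-3 binds MHC class II among other ligands, TIM-3 (Havcr2) binds galectin-9 among others, and BTLA binds HVEM (Tnfrsf14). Interferon gamma signalling, in which the transcription factor IRF1 takes part, raises PD-L1 on tumor and myeloid cells, and an antibody against PD-1 blocks the protein without removing its gene.

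Each value is the FPKM that the authors deposited, fragments scaled to the length of the gene and to the mapped fragments of the library. Levels can thus be compared between genes as far as the gene lengths used hold, and these lengths are not given. Low-expressed members rest on few fragments. Steps between low FPKM values gave whole numbers of fragments (smallest whole numbers that fit, tolerance 0.05 of a fragment) for 8 members, with totals over the 12 tumors of 114 for Btla, 259 for Ctla4, 280 for Cd96, 400 for Pdcd1lg2, 430 for Lag3, 458 for Pdcd1, 1145 for Tigit and 1527 for Havcr2. Cd274 and Pvr rest on an estimated 9073 and 17187 fragments. Gene lengths implied by the steps equalled GENCODE exon lengths for Pdcd1 and Cd96. They were longer for Havcr2 (4963 against 2721 bases) and Btla (6082 against 3396) and shorter for Pdcd1lg2 (1645 against 1961). The order of genes with close levels is therefore uncertain. Libraries held an estimated 14900000 to 20300000 fragments, and Stk11 lay between 7.898 and 11.49 FPKM in every tumor, with no tumor of the line without the hairpin to compare it with. The epithelial markers Krt18, Krt19 and Epcam averaged 1.04, 0.41 and 0.38 FPKM over the tumors and ranged down to 0 (Epcam mean 0.165 to 0.685 FPKM by arm), whereas Krt8 averaged 84.9 to 175 FPKM. Normal tissue markers differed between single tumors. Summed FPKM of 4 skeletal muscle genes was 45.6 in vehicle replicate 1, 137 in palbociclib replicate 3 and 133 in combination replicate 2 against at most 8.45 elsewhere. Summed FPKM of 4 adipose genes was 111 in palbociclib replicate 1 and 271 in combination replicate 1 against at most 11.1 elsewhere, and 4 skin genes summed to 315 in palbociclib replicate 2 and to no more than 0.91 in any other tumor. The part of these tissues in the members' values was not tested.

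On GRCm38, Cd274 (chr19:29367455-29388095, plus strand) and Pdcd1lg2 (chr19:29410919-29471161, plus strand) are neighbours 22.8 kb apart. Tigit (chr16:43648867-43664146, minus strand), Btla (chr16:45224315-45257670, plus strand) and Cd96 (chr16:46035657-46120251, minus strand) also share a chromosome. Ctla4 (chr1:60887000-60915832, plus strand), Pdcd1 (chr1:94038305-94052553, minus strand), Lag3 (chr6:124904361-124911705, minus strand), Pvr (chr7:19903578-19921160, minus strand) and Havcr2 (chr11:46454935-46481255, plus strand) lie elsewhere. Exons of Cd274 overlap an antisense gene, AC119228.1. Whether the counting used strand is not given in the sources used here, so reads of these 2 genes cannot be told apart.

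The promoters of PD-1 and of its 2 ligands are shown because these 3 genes were on the higher side with palbociclib. They come from RefSeq on GRCm38.p6 and span 250 bases before to 50 bases after the start of the gene, read 5′ to 3′ on the gene's strand, with matches of searched motifs in capitals.
Pdcd1 (chr1:94052504-94052803, minus strand): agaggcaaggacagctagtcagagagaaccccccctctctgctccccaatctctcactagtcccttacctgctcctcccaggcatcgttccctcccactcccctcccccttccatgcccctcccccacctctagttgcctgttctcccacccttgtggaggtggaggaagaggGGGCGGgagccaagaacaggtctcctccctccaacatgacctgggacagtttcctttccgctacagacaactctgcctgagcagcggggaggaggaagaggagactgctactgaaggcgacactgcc
Cd274 (chr19:29367188-29367487, plus strand): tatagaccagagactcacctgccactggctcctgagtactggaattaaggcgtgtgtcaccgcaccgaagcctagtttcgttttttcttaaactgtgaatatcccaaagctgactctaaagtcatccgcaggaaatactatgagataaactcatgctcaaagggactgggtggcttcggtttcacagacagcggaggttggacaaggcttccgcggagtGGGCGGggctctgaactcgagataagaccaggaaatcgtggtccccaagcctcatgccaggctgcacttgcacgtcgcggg
Pdcd1lg2 (chr19:29410669-29410968, plus strand): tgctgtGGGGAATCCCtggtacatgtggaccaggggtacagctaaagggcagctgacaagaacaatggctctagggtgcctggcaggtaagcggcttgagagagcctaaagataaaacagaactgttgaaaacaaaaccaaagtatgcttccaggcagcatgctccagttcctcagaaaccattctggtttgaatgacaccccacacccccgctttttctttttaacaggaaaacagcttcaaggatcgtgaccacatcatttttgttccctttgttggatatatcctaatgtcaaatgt
Both strands were searched for 7 motifs: GAS (TTCNNNGAA), IRF (GAAA, any 2 bases, GAAA), AP-1 (TGANTCA), the TATA box (TATAAA), E2F (TTTCGCGC), the GC box (GGGCGG) and NF-kB (by its usual consensus). The capitals mark a GC box at position -77 from the start in Pdcd1 and at -31 in Cd274, letters held by 35.7% of all 32851 promoters. In Pdcd1lg2 they mark an NF-kB match that reads as one on both strands, at position -244, where 4.51% of promoters hold such a match. The GC box and NF-kB were added to the search after these letters were read, so the shares do not test their matches. None of the 3 windows held GAS, which is in 8.3% of promoters, IRF (3.44%), AP-1 (7.81%), the TATA box (13.6%) or E2F (0.323%). RefSeq promoters were matched for 8 of the 10 members. Of the other 5, Cd96 held TTCAGAGAA, a GAS match, at position -79 and TATAAA at -214, Havcr2 held TGATTCA at -200 and Ctla4 held TATAAA at 40, while Tigit and Btla held none of the 7. The Ctla4 window (chr1:60908775-60909074) lies inside the gene span given above, so its position counts from the RefSeq start and not from the start of that span. A match describes letters in the window and not a used site.

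By level, the ligands Pvr and Cd274 and the receptor Tigit led. Mean FPKM over the 12 tumors was 13.7 for Pvr and 12.5 for Cd274, and Pvr was the higher in 7 of 12 tumors, so these neighbours in the order did not separate. Cd274 was above Tigit (5.82) in 12 of 12 tumors, and Tigit was above Havcr2 (1.53) in 12 of 12. Havcr2, Pdcd1lg2 (1.26), Pdcd1 (1.19) and Lag3 (1.0) followed closely, with Havcr2 above Pdcd1lg2 in 8 tumors, Pdcd1lg2 above Pdcd1 in 4 and Pdcd1 above Lag3 in 8. Lag3 was above Cd96 (0.646) in 11 tumors and Cd96 above Ctla4 (0.452) in 8. Btla (0.0946) was lowest, under Ctla4 in 12 of 12. Pdcd1lg2 varied most, 21.4-fold between its lowest and highest tumor, followed by Ctla4 with 17.3-fold and Pdcd1 with 9.73-fold, while Pvr varied 1.96-fold and Tigit 1.97-fold.

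**Figure D1:**
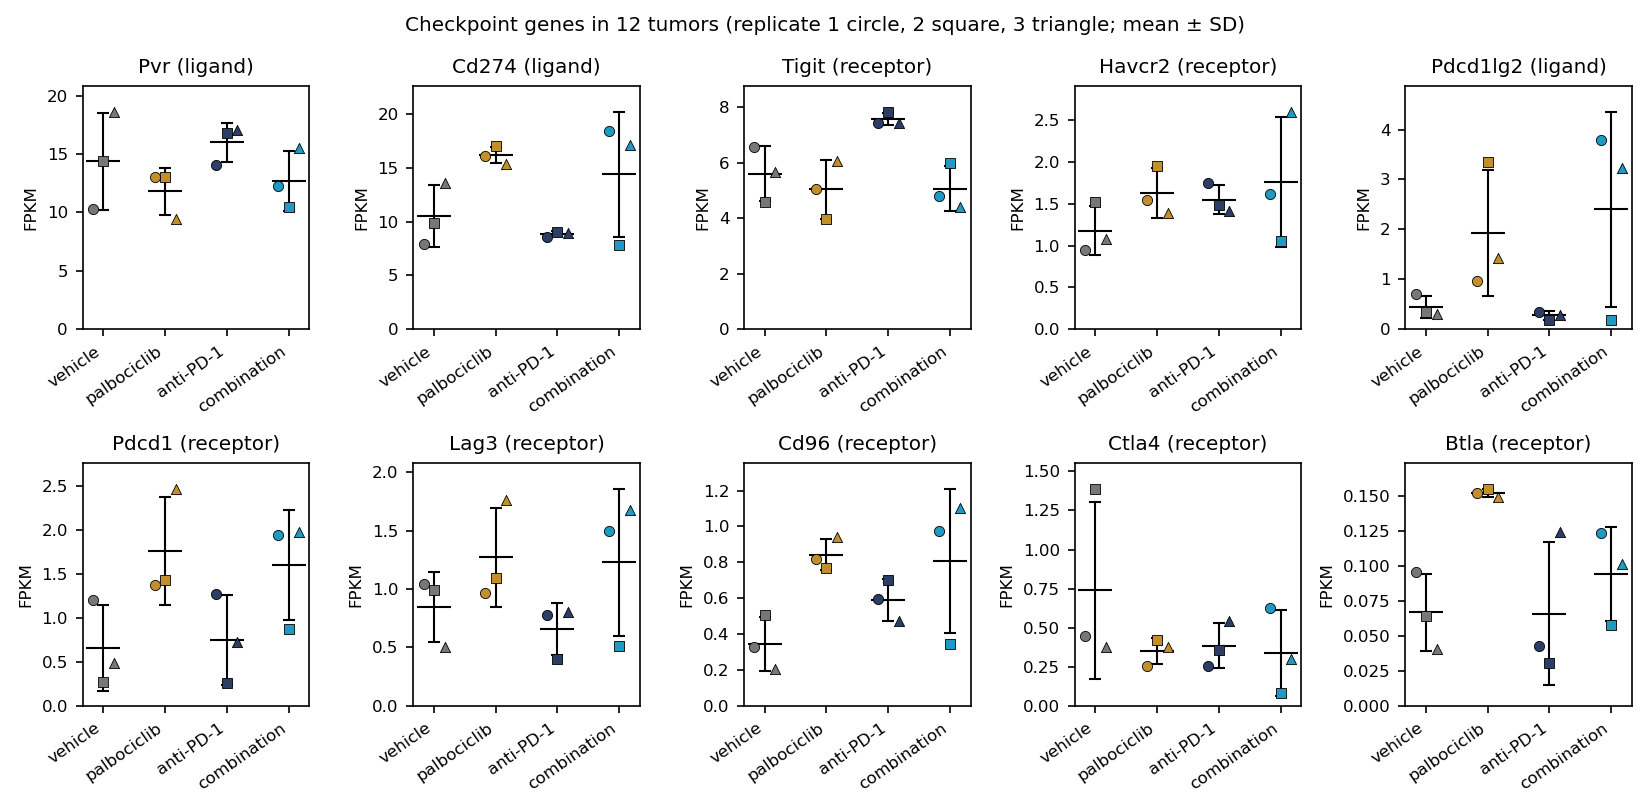
FPKM (linear axis from 0, own scale for each gene) of the 10 members in the 12 tumors, ordered by mean level; points are tumors, horizontal bars the arm mean and whiskers 1 SD. Palbociclib tumors lay above all vehicle tumors for Cd274, Pdcd1lg2, Pdcd1, Cd96 and Btla, and combination replicate 2 (square) was the lowest tumor of its arm for 9 of the 10 genes, Tigit being the exception.

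Whether palbociclib, alone or beside anti-PD-1, shifted these transcripts was asked with limma on log2(FPKM + 0.1) over the 15350 genes whose mean FPKM reached 0.1, which left out Btla and kept 9 members. The palbociclib effect is the mean of 2 differences, palbociclib minus vehicle and combination minus anti-PD-1, and its fold is on the same log2(FPKM + 0.1) scale, which understates the change of low genes. No member passed an adjusted p of 0.05 (Benjamini-Hochberg over all genes), where 0.313% of all genes did. At an unadjusted p under 0.05, 5 of 9 members stood out, 4 higher (Pdcd1, Cd96, Cd274 and Pdcd1lg2) and 1 lower (Tigit), against 20.5% of all genes, 14.1% higher and 6.44% lower. The median effect was 0.63 over the 9 members and 0.055 over all genes. In bulk RNA, fewer cells of a type and less RNA per cell cannot be told apart.

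PD-1 transcript was at 1.20, 0.269 and 0.485 FPKM in the vehicle tumors, 1.37, 1.43 and 2.47 with palbociclib, 1.27, 0.254 and 0.727 with anti-PD-1, and 1.94, 0.876 and 1.98 with the combination. The 3 palbociclib tumors were above the 3 vehicle tumors, whereas combination replicate 2 lay inside the range of the anti-PD-1 tumors. The palbociclib effect on Pdcd1 was 1.29 (SE 0.39, 2.44-fold, limma adjusted p = 0.125). It passed without vehicle replicate 1 (1.54, limma adjusted p = 0.0459), in a fit where 4.51% of all genes passed. Vehicle replicate 1 had the highest Pdcd1 of its arm, so that adjusted p-value is not a test of Pdcd1. The anti-PD-1 effect, the mean difference between arms with and without the antibody, was 0.01 (95% interval -0.86 to 0.87).

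Cd274, which encodes PD-L1, was at 7.95, 9.92 and 13.6 FPKM with vehicle and at 16.1, 17 and 15.4 with palbociclib. With anti-PD-1 it was at 8.60, 9.05 and 8.96, and with the combination at 18.4, 7.79 and 17.1. Palbociclib and vehicle tumors did not overlap, and 2 of 3 combination tumors were at about the palbociclib level while combination replicate 2 was below every anti-PD-1 tumor. The palbociclib effect was 0.63 (SE 0.2, 1.54-fold, limma adjusted p = 0.134).

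Pdcd1lg2, which encodes PD-L2, was at 0.706, 0.355 and 0.3 FPKM with vehicle, 0.975, 3.35 and 1.43 with palbociclib, 0.349, 0.186 and 0.295 with anti-PD-1, and 3.80, 0.177 and 3.23 with the combination. Combination replicate 2 was the lowest of all 12 tumors and the other 2 combination tumors were among the 3 highest. The effect of 1.9 (SE 0.6, 3.74-fold) had a limma adjusted p of 0.131.

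Combination replicate 2 had the lowest Cd274 and Pdcd1lg2 of the 12 tumors, while its Pvr lay within the range of the others. It also had the lowest level of the leukocyte gene Ptprc (0.841 FPKM against 1.19 to 3.36 in the other 11 tumors) beside its high muscle genes. Without it, 3 members passed in the palbociclib effect, with limma adjusted p-values over all genes: Pdcd1lg2 at 2.52 (SE 0.31, adjusted p = 0.00783), Cd274 at 0.82 (SE 0.12, adjusted p = 0.0123) and Cd96 at 0.94 (SE 0.2, adjusted p = 0.0486). In that fit 1.72% of all genes passed. The tumor stands out here by its own low Cd274 and Pdcd1lg2. It was also the lowest of its arm for Cd96 (0.347 against 0.972 and 1.10 FPKM). These adjusted p-values are thus not a test of the 3 genes. With all 12 tumors no member passed.

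Among the receptors that bind Pvr, Cd96 and Tigit had palbociclib effects of opposite sign. Cd96 was at 0.325, 0.505 and 0.203 FPKM with vehicle and 0.819, 0.770 and 0.940 with palbociclib, with no overlap. It was at 0.598, 0.701 and 0.470 with anti-PD-1 and at 0.972, 0.347 and 1.10 with the combination. Its palbociclib effect was 0.71 (SE 0.26, 1.64-fold, limma adjusted p = 0.173).

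Tigit was at 6.57, 4.58 and 5.68 FPKM with vehicle, 5.06, 3.98 and 6.08 with palbociclib, 7.43, 7.83 and 7.45 with anti-PD-1, and 4.80, 5.99 and 4.42 with the combination. The anti-PD-1 tumors lay above all 9 others, and vehicle, palbociclib and combination tumors overlapped. The anti-PD-1 minus vehicle difference was 0.44 (SE 0.18, limma adjusted p = 0.58), and combination minus anti-PD-1 was -0.58 (SE 0.18, limma adjusted p = 0.327). Both comparisons share the anti-PD-1 tumors. The palbociclib effect was -0.37 (SE 0.12, 0.774-fold, limma adjusted p = 0.151), and the interaction, the effect of palbociclib with anti-PD-1 minus that without, was -0.42 (95% interval -0.97 to 0.13).

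Pvr, the ligand of both, was at 10.3, 14.4 and 18.6 FPKM with vehicle, 13.0, 13.0 and 9.46 with palbociclib, 14.1, 16.8 and 17.1 with anti-PD-1, and 12.3, 10.5 and 15.5 with the combination. All 4 arms overlapped with at least one other, and the palbociclib effect of -0.3 (SE 0.15) had a limma adjusted p of 0.292.

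The 4 other receptors had an unadjusted p above 0.05 (Lag3, Havcr2 and Ctla4) or were left out of the fit for their low level (Btla). Lag3 averaged 0.845 ± 0.299 FPKM with vehicle, 1.27 ± 0.425 under palbociclib, 0.656 ± 0.225 under anti-PD-1 and 1.23 ± 0.63 under both drugs (SD, n = 3 tumors each), a palbociclib effect of 0.64 (SE 0.31, limma adjusted p = 0.264). Havcr2 averaged 1.18 ± 0.296, 1.63 ± 0.298, 1.55 ± 0.174 and 1.76 ± 0.78 FPKM in the same order (SD, n = 3), an effect of 0.27 (SE 0.2, limma adjusted p = 0.463). Palbociclib and vehicle tumors overlapped for both genes.

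Ctla4 was highest in vehicle replicate 2 with 1.39 FPKM (62 fragments), against 0.447 and 0.375 in the other vehicle tumors and 0.0807 to 0.626 in the 9 treated tumors. That tumor had the lowest Cd3e of all, 0.226 FPKM. The effect on Ctla4 was -0.52 (SE 0.38, limma adjusted p = 0.447).

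Btla was at 0.152, 0.155 and 0.149 FPKM with palbociclib against 0.0955, 0.0640 and 0.0405 with vehicle, with no overlap, on 3 to 15 fragments a tumor. With anti-PD-1 it was at 0.0430, 0.0302 and 0.124, and with the combination at 0.123, 0.0575 and 0.101. In a fit with no filter on low values its palbociclib effect was 0.43 (SE 0.17, limma adjusted p = 0.261).

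**Figure D2:**
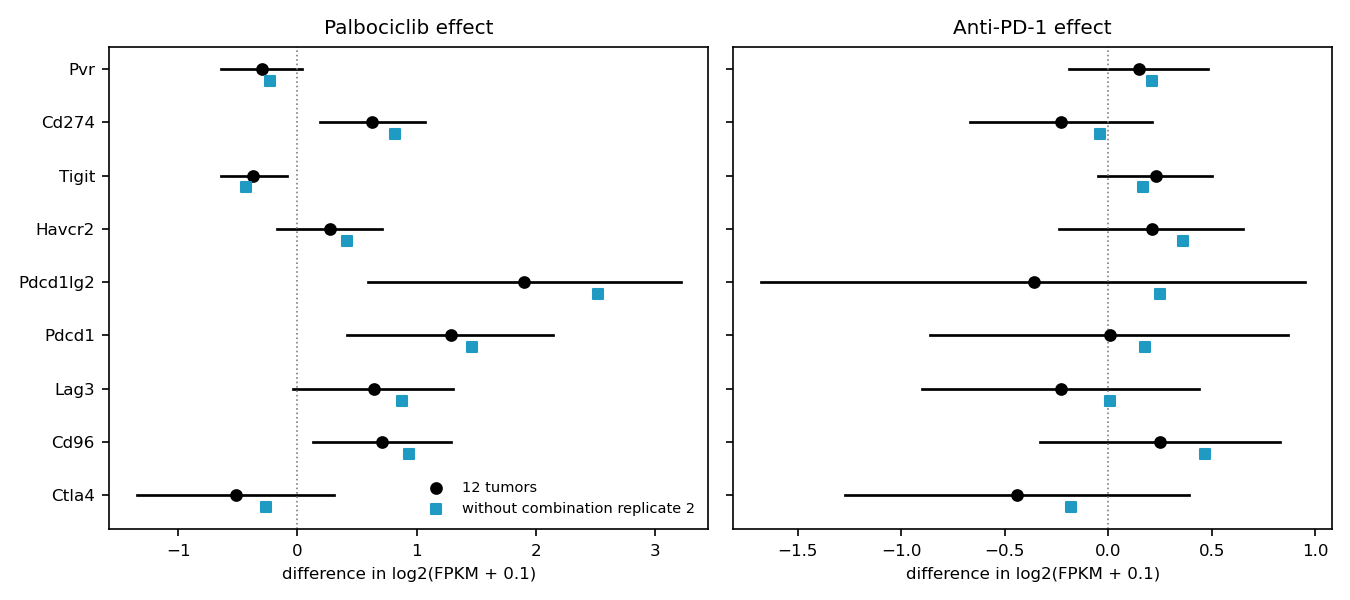
Palbociclib effect (left) and anti-PD-1 effect (right) on 9 members as differences in log2(FPKM + 0.1); black points with lines are limma estimates from 12 tumors with 95% intervals, blue squares the estimates without combination replicate 2. Intervals for Cd274, Pdcd1lg2, Pdcd1 and Cd96 lay above 0 and that for Tigit below 0 for palbociclib, before adjustment over all genes, while all 9 intervals for anti-PD-1 held 0.

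Between single arms the counts were small. For palbociclib minus vehicle, 5 of 10 members did not overlap and were higher (Pdcd1, Btla, Cd96, Cd274 and Pdcd1lg2), against 12.9% of all genes tested, and 3 of 9 had an unadjusted p under 0.05 (13.8% of genes). For anti-PD-1 minus vehicle, Tigit alone did not overlap and was higher (4.25% of genes), and it alone of 9 had an unadjusted p under 0.05 (8.4%). For the combination minus vehicle, Pdcd1 (1.29, limma adjusted p = 0.281) and Cd96 (0.96, limma adjusted p = 0.242) had an unadjusted p under 0.05 against 17% of genes, and no member was without overlap (10.8% of genes higher and 11.6% lower). For the combination minus anti-PD-1, Tigit and Pdcd1lg2 (2.05, limma adjusted p = 0.389) had an unadjusted p under 0.05 against 11.8% of genes, and Tigit was lower without overlap (7.49%). For the combination minus palbociclib no tested member had an unadjusted p under 0.05 (4.52% of genes), and Btla was lower without overlap (9.15%). No member had an adjusted p under 0.05 in these comparisons, where the share of all genes was 0.143% for palbociclib minus vehicle, 0.013% for combination minus vehicle and 0.00651% for the combination minus either single drug, and 0 genes passed for anti-PD-1 minus vehicle. For the anti-PD-1 effect and the interaction limma gave 0 members under 0.05, adjusted or not, with 6.77% and 5.73% of all genes under an unadjusted 0.05. The widest interaction intervals, -2.34 to 2.91 for Pdcd1lg2 and -2.06 to 1.4 for Pdcd1, left room for large differences either way.

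T cell RNA was also on the higher side in palbociclib-treated tumors, and its part in the members' values was not tested. All 8 T cell markers had a positive palbociclib effect with an unadjusted p under 0.05 (median 1.42), against 14.1% of all genes, and none passed after adjustment. Their summed FPKM was 1.97 to 7.57 with vehicle, 8.61 to 16.6 under palbociclib, 1.96 to 4.77 under anti-PD-1 and 5.19 to 15.8 under both drugs. Lck, the kinase of T cell receptor signalling, had an effect of 1.34 (limma adjusted p = 0.0736) and Cd3g, a chain of the receptor complex, one of 1.79 (limma adjusted p = 0.0885). Taking the mean log2 level of Cd3d, Cd3e and Cd3g from each member's log2 level gives a level relative to T cell RNA. On that scale Pdcd1 was at 0.01 ± 0.05 with vehicle, 0.03 ± 0.15 under palbociclib, 0.19 ± 0.42 under anti-PD-1 and -0.25 ± 0.24 under both drugs (SD, n = 3), a palbociclib effect of -0.21. Tigit was at 3.11 ± 0.7, 1.52 ± 0.4, 3.57 ± 0.61 and 1.42 ± 1.07 in the same order (SD, n = 3), an effect of -1.87. The effects of the other receptors were also negative, -0.79 for Cd96, -0.86 for Lag3, -1.07 for Btla, -1.23 for Havcr2 and -2.02 for Ctla4. These relative effects carry no test, since every gene then shares the spread of the reference. The T cell reference itself had an effect of 1.5, so a gene unchanged by palbociclib falls by that much on this scale. Over all genes the median effect before this step was 0.055, and 87.8% of genes had a limma adjusted p under 0.05 after it. Negative values here are thus not particular to the receptors.

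Tigit exceeded Cd3e in every tumor. Its FPKM was 5.04, 20.3 and 13.8 times that of Cd3e with vehicle, 4.21, 3.15 and 2.84 times with palbociclib, 10.2, 30.6 and 11 times with anti-PD-1, and 2.12, 8.20 and 2.45 times with the combination. Palbociclib tumors were below all vehicle and anti-PD-1 tumors in this ratio. Cd3e, the denominator, itself had a palbociclib effect of 1.35 (SE 0.4, limma adjusted p = 0.119). A gene unchanged by palbociclib would thus also fall in a ratio to Cd3e, so the lower ratio alone does not show a change in Tigit. Tigit FPKM itself overlapped between palbociclib and vehicle tumors, and was lower in palbociclib than in anti-PD-1 tumors. Cd3e rests on 5 to 52 fragments a tumor, so single ratios are imprecise.

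Over the 12 tumors, each member was set beside marker lists, with r on the log2 scale as a description. The points share libraries, depth and arms, so r was also taken within arms, and again without the 2 tumors farthest from the median of the marker level. Pdcd1 followed the T cell markers (r = 0.956, rho = 0.965, within arms 0.93, without the 2 farthest tumors 0.946). Among 11186 genes whose mean FPKM reached 1, the gene most like Pdcd1 was Cd3e (r = 0.972), followed by Psmb8, an immunoproteasome subunit (0.961), and Lck (0.954). Such leading genes are the highest of many and so high by choice. Tigit did not follow the T cell markers (r = -0.421, rho = -0.378, within arms 0.213, without the 2 farthest -0.573). Its most alike genes were Itga3, an integrin chain (r = 0.902), Gls2, a glutaminase (0.884), and Rpl7, a ribosomal protein (0.869). Cd96 had its highest r with the natural killer cell list (0.731, rho = 0.699, within arms 0.84, without the 2 farthest 0.81), and the gene most like it was Trbc1, a constant part of the T cell receptor (r = 0.901), followed by Il2rb (0.853), an interleukin receptor chain of T and natural killer cells, and Glb1 (0.839).

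**Figure D3:**
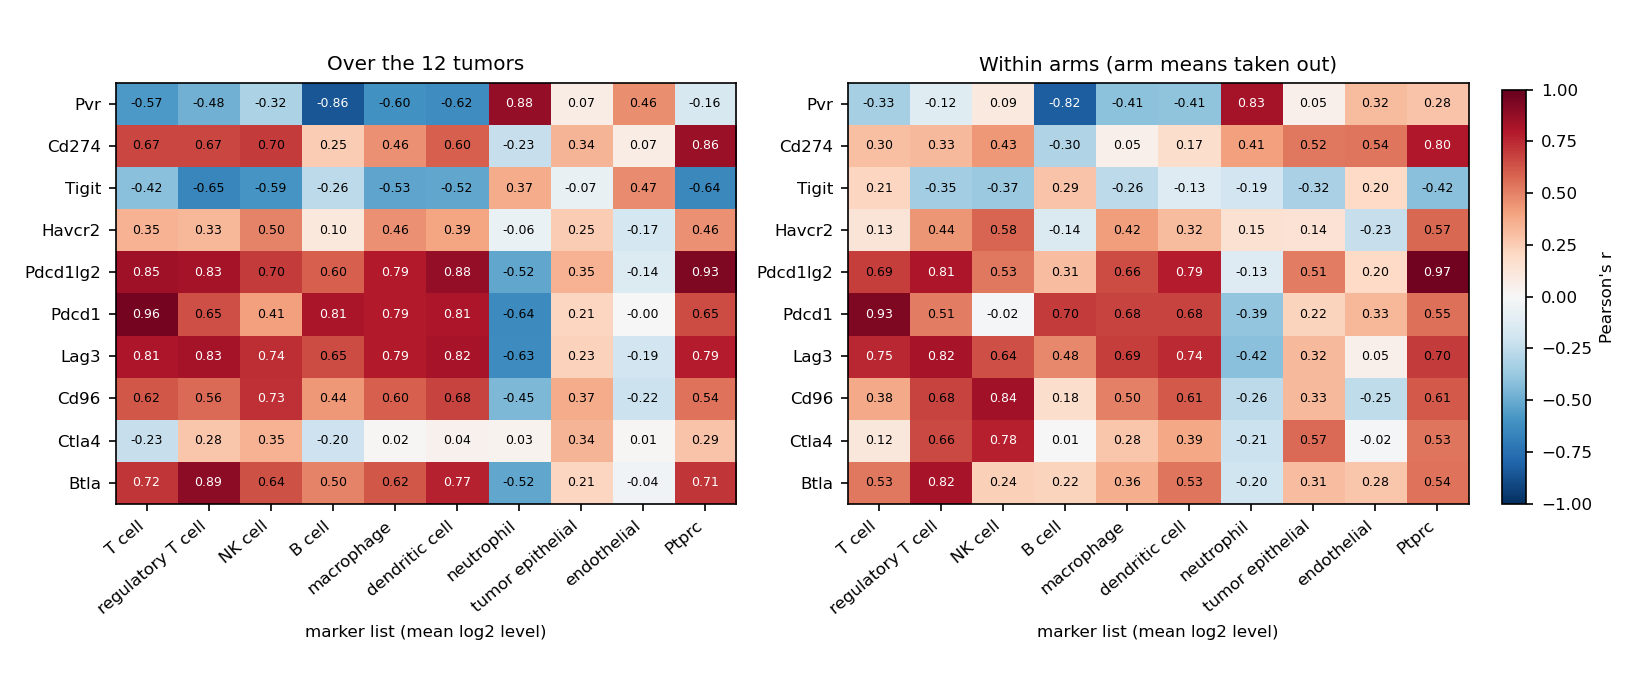
Pearson's r of each member (rows, ordered by mean level) with the mean log2 level of 9 marker lists and with Ptprc (columns), over 12 tumors (left) and within arms after arm means were taken out (right); colours run from -1 (blue) to 1 (red). Pdcd1 was highest with T cell markers (0.956), Pdcd1lg2 with Ptprc (0.93) and Pvr with neutrophil markers (0.881).

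The 2 PD-1 ligands ran with Irf1 and with the leukocyte gene Ptprc. Pdcd1lg2 followed Irf1, a transcription factor induced by interferon gamma (r = 0.955, rho = 0.909, within arms 0.914, without the 2 farthest 0.921), and Ptprc (r = 0.93, rho = 0.958, within arms 0.968, without the 2 farthest 0.939). Cd274 followed Irf1 (r = 0.913, rho = 0.832, within arms 0.84, without the 2 farthest 0.882) and Ptprc (r = 0.862, rho = 0.846, within arms 0.797, without the 2 farthest 0.831). Within arms its r with the lists of single leukocyte types ran only from -0.302 (B cells) to 0.435 (natural killer cells). The 3 genes most like Cd274 were the MHC class I genes H2-T23 (r = 0.939), H2-D1 (0.926) and H2-Q4 (0.926). These class I genes belong to a family of near-identical copies whose reads the counting could have split. The genes most like Pdcd1lg2 were Plbd1 (r = 0.984), Lsp1, a leukocyte protein (0.965), and Ptk2b, a kinase (0.963). Cd274 and Pdcd1lg2, neighbours on the chromosome, had r = 0.838 with each other (rho = 0.818, within arms 0.691, without the 2 farthest 0.757).

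Irf1 itself was at 16.7, 16 and 18.4 FPKM with vehicle, 24.2, 31.1 and 26.8 with palbociclib, 17.7, 14.1 and 13.9 with anti-PD-1, and 36.7, 15.5 and 30.4 with the combination. Combination replicate 2 lay among the tumors without palbociclib. The effect on Irf1 was 0.73 (SE 0.18, limma adjusted p = 0.0885).

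Pvr ran with another group of genes. It followed 4 neutrophil genes (r = 0.881, rho = 0.944, within arms 0.832, without the 2 farthest 0.809), whose summed FPKM ran from 12.8 in combination replicate 1 to 504 in vehicle replicate 3. It ran opposite to the B cell markers (r = -0.859, rho = -0.86, within arms -0.825, without the 2 farthest -0.77) and to the skeletal muscle markers (r = -0.801, rho = -0.636, within arms -0.797, without the 2 farthest -0.623), the latter high in 3 tumors, and the part of muscle in the Pvr values was not tested. The genes most like it were Adamts7, a secreted protease (r = 0.934), Tnfaip2, induced by tumor necrosis factor (0.924), and Il1r2, a decoy receptor for interleukin 1 (0.905). Its r with Cd274 was near 0 over the tumors (-0.000596, rho = 0.042) and 0.702 within arms, and its r with its receptor Tigit was 0.103 (rho = 0.112, within arms -0.637).

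**Figure D4:**
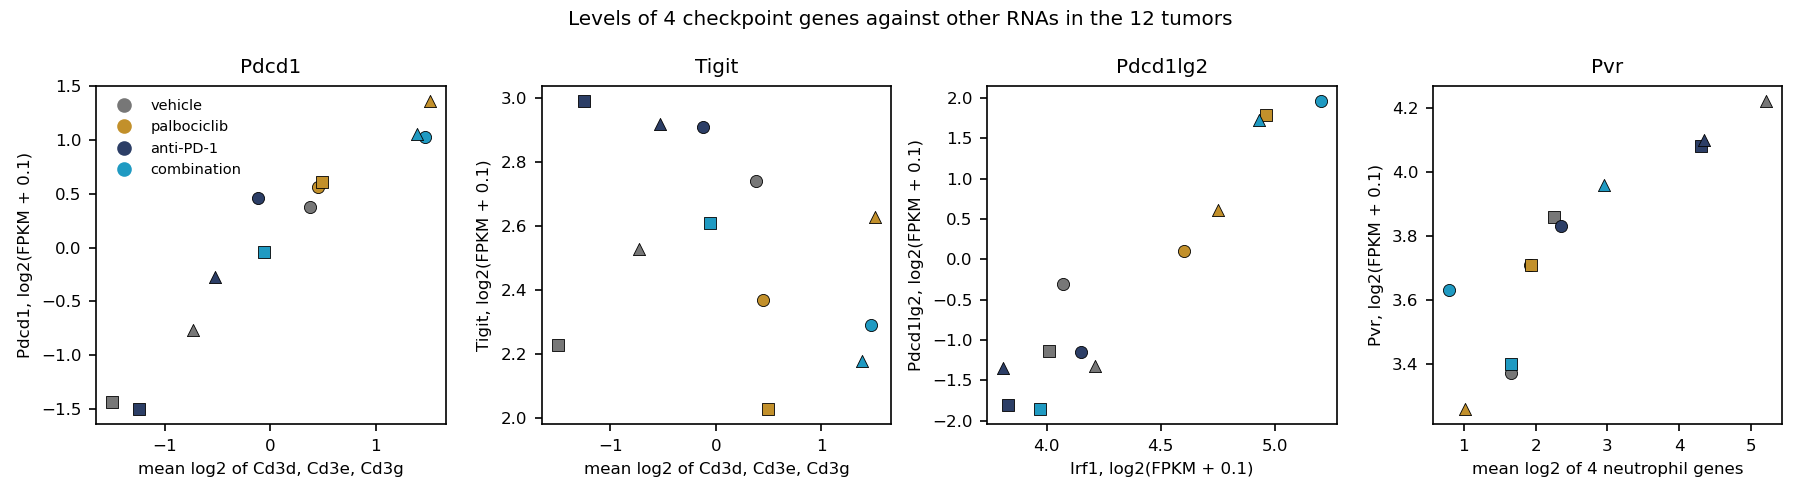
Log2(FPKM + 0.1) of Pdcd1 and Tigit against the mean log2 level of Cd3d, Cd3e and Cd3g, of Pdcd1lg2 against Irf1 and of Pvr against the mean log2 level of 4 neutrophil genes; each point is 1 of 12 tumors, colours mark arms and shapes the replicate (1 circle, 2 square, 3 triangle). Pdcd1 rises along the T cell axis while Tigit does not, and Pdcd1lg2 and Pvr rise with Irf1 (r = 0.955) and the neutrophil genes (r = 0.881).

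Around the members, lists of pathway genes were counted in the palbociclib effect with the same limma fit. Beside each list stands the share over all genes at an unadjusted p under 0.05, 14.1% higher and 6.44% lower, with a median effect of 0.055. Among genes for interferon gamma signalling and PD-L1 control, Ifng, which encodes interferon gamma itself, had an effect of 1.55 (SE 0.57, limma adjusted p = 0.172).

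Of 12 further ligands and partners of the receptors, 10 were tested and none passed, with 3 higher and 1 lower at an unadjusted p under 0.05 (median 0.18). Cd86, a ligand of CTLA-4 and CD28, had an effect of 1.43 (SE 0.38, limma adjusted p = 0.0999). Lgals9, which encodes galectin-9, averaged 19.9 ± 1.31 FPKM with vehicle, 43.8 ± 10.9 under palbociclib, 28.5 ± 8.47 under anti-PD-1 and 25.1 ± 2.73 under both drugs (SD, n = 3), an effect of 0.48 (SE 0.15, limma adjusted p = 0.125).

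Of 10 other inhibitory receptors and ligands, 8 were tested and none passed (2 higher and 1 lower at an unadjusted p under 0.05, median 0.26). Lair1, a collagen receptor, had an effect of 1.48 (SE 0.34, limma adjusted p = 0.0816) and Cd200, a ligand that restrains myeloid cells, one of -0.68 (SE 0.23, limma adjusted p = 0.153). All 5 activating counterparts were tested, none passed and 3 were higher at an unadjusted p under 0.05 (median 0.67). Cd226, the activating rival of Tigit and Cd96, had an effect of 1.74 (SE 0.5, limma adjusted p = 0.116), Tnfrsf4, which encodes OX40, one of 0.82 (SE 0.27, limma adjusted p = 0.148), and Tnfrsf9, which encodes 4-1BB, one of -0.98 (SE 0.47, limma adjusted p = 0.261).

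Of 12 transcription factors tied to T cell exhaustion, 10 were tested and none passed (4 higher and 1 lower at an unadjusted p under 0.05, median 0.21). Tbx21, which encodes T-bet, had an effect of 1.23 (SE 0.28, limma adjusted p = 0.0816) and Irf4 one of 1.5 (SE 0.38, limma adjusted p = 0.0911). Of 3 phosphatases that act below these receptors, none passed and 2 were higher at an unadjusted p under 0.05, Ptpn6 (SHP-1) with 0.94 and Ptpn11 (SHP-2) with 0.67. Among markers of other cells none passed, and the shares over all genes at an unadjusted p under 0.05 were 14.1% higher and 6.44% lower. Neutrophil genes were lower in 3 of 4 at an unadjusted p under 0.05 (median -1.69) and endothelial genes in 2 of 4 (median -0.19). Higher at an unadjusted p under 0.05 were 3 of 6 macrophage genes (median 0.82), 2 of 6 natural killer cell genes (0.6), 2 of 3 B cell genes tested (0.96), 1 of 6 dendritic cell genes (0.68), 0 of 2 regulatory T cell genes (0.39), 0 of 4 epithelial genes (0.09), 3 of 4 adipose genes (3.31), 0 of 4 muscle genes (1.58) and 0 of 4 skin genes (2.02). Ptprc had an effect of 0.56 (SE 0.28, limma adjusted p = 0.272).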

How the data were processed

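RNA of 12 subcutaneous tumors was sequenced and the authors deposited 1 FPKM table per tumor (34745 entries, 34678 symbols after the entry with the highest mean was kept for 67 repeats). The submitters' processing notes name HISAT2 and GRCm38/mm10. The counting tool, annotation and use of strand are not given in the sources used here. Older symbols in the files were matched through RefSeq synonyms for 4 listed genes, and Pvrig was not matched. Positions are from GENCODE M21.

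The 15350 genes whose mean FPKM reached 0.1 entered limma 3.58.1 (R 4.3.3) as log2(FPKM + 0.1) (trend, 1 mean per arm, 12 tumors, Benjamini-Hochberg adjustment, threshold 0.05). Tested on simulated data for the palbociclib effect, it recovered 158 of 200 genes changed by 1 among 15350, with 9 false calls, and 189 of 200 changed by 2, with 19 false calls. The simulated noise was independent between genes, without tumors that stand out, so these counts do not give the recovery in the real tumors. Fragment numbers were inferred from FPKM steps, which gave whole fragments for 77.6% of 2074 genes tried. No count model was run. Replicate numbers come from the labels and do not mark a shared animal. Within arms, tumors correlated at r = 0.954 to 0.987 over all genes tested, and none was a copy of another. The labels do not say how the replicates were kept apart, so p-values measure the spread between these tumors. Python 3.11.15 with pandas 2.3.3, numpy 2.4.6 and matplotlib 3.10.9 did the rest.

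The members, gene lists and motifs were chosen with earlier results of these data known, and 2 of the motifs (GC box and NF-kB) after the promoter letters were read. The rule for names was every member, the 3 genes most like it, and of each list those that passed or those with the smallest p or largest effect. Of some lists only part of these are named, some listed genes are not reported here, and Irf1, Cd3e and Ptprc were named after their values were seen. Alternatives were pseudocounts of 1 and 0.01, a filter at a mean FPKM of 1 or none, rescaling to TPM, quantile normalization, no trend, a replicate block, only the arms compared, 5 T cell genes as reference and leaving out each tumor.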

Additional observations from a re-analysis of the deposited data

How the results depend on the processing

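With 12 tumors, limma called 0 of 9 members in each of the 8 comparisons, and this held for both other pseudocounts, both other filters, TPM, quantile normalization, no trend and, for comparisons of 2 arms, a fit of only those arms. Leaving out single tumors gave 0 to 3 members in the palbociclib effect. The number passing was 1 without vehicle replicate 1 and 3 without combination replicate 2. The cause was not tested beyond the values given for those tumors. The anti-PD-1 effect on Pdcd1, 0.01, became -0.01 with a pseudocount of 1 and -0.03 after rescaling to TPM, and ran from -0.22 to 0.27 when single tumors were left out. That on Lag3 ran from -0.38 to 0.01 and that on Pdcd1lg2 from -0.7 to 0.25, each turning positive without combination replicate 2. The number of all genes passing in the palbociclib effect, 48, was 11 with no filter, 70 with a filter at 1 and 0 without a trend, and 0 to 766 when single tumors were left out. For palbociclib minus vehicle it was 22, against 1 after quantile normalization, 6 without a trend, 34 after rescaling to TPM, 0 with only those arms in the fit and 1 to 56 when single tumors were left out. Relative to T cell markers, the palbociclib effect on Pdcd1 ran from -0.32 to -0.12 and that on Tigit from -2.18 to -1.7 when single tumors were left out, and Tigit was at -1.14 with a pseudocount of 1. Quantile normalization left 63.6% of the palbociclib calls higher against 79.2%.

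The replicate numbers did not pair the tumors in a steady way (r of deviations -0.213 to 0.453 over 18 same-number pairs, 7 above 0.1). Pairs with different numbers ran from -0.353 to 0.309. The labels do not say whether a number marks a shared batch, and these values do not settle it. A replicate block gave 0 members and 129 genes in the palbociclib effect, and 0 members and 51 genes for palbociclib minus vehicle. Depth limits Btla, Ctla4, Pdcd1lg2, Pdcd1 and Cd96 most, on as few as 3, 4, 5, 8 and 9 fragments in a tumor.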

Other observations

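For the remaining receptors, the genes most like each over the 12 tumors were of mixed kinds. Lag3 was most like Gpr65, a proton-sensing receptor (r = 0.914), Tmem86a (0.903) and the class I gene H2-Q6 (0.886). Havcr2 was most like F7, coagulation factor VII (r = 0.888), Atp6v0d2, a proton pump subunit of macrophages and osteoclasts (0.804), and Fkbpl (0.799), and its r with the macrophage markers was 0.458. Ctla4 was most like Gpatch2l (r = 0.896), Zfp715 (0.892) and Tecpr1 (0.89), and its r with T cell markers was -0.229. Btla was most like Pcmt1 (r = 0.876), Atp6v0a2 (0.853) and H2-M3 (0.841), and had r = 0.891 with 3 regulatory T cell genes (within arms 0.822), on few fragments. Its r with the dendritic cell markers was 0.768 (within arms 0.533, without the 2 farthest tumors 0.911). With the T cell markers it was 0.718 (within arms 0.528).

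The ratio of Cd274 to Pdcd1 FPKM had a wide range in the arms without palbociclib. It ran from 6.6 to 36.9 with vehicle, 6.24 to 11.9 with palbociclib, 6.76 to 35.6 with anti-PD-1 and 8.63 to 9.48 with the combination. In the 3 combination tumors it was nearly equal, although Cd274 itself was 18.4, 7.79 and 17.1 FPKM there. Pvr exceeded Tigit by 1.56 to 3.5 times in all 12 tumors.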
